A study of Rattus norvegicus with 6 samples.

Results

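Toll-like receptors are membrane proteins that recognise microbial molecules and molecules released from damaged tissue, and Myd88 is the adaptor that most of them use to pass the signal on. Probes were taken by annotated symbol and not by measured values, but the set of genes was chosen with earlier results of these data known. The set named here held 9 rat genes: Tlr2, Tlr3, Tlr4, Tlr5, Tlr6, Tlr7, Tlr9, Myd88 and Ly96, the co-receptor of Tlr4. Of these, 7 had a probe with that symbol, each of them 1 probe, among 23549 rows tested (12589 named genes). Tlr9 and Ly96 were not analysed here.

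The 4 groups were Sprague-Dawley rats, 4 weeks old at the start, that were pair-fed or given a liquid diet with ethanol for 4 weeks and then either had a pinned closed fracture of the right hind-limb or had none. They are called fractured pair-fed, unfractured pair-fed, fractured alcohol-fed and unfractured alcohol-fed rats below, and no other treatment is stated. Tissue was collected after 3 days from the callus of the right hind-limb, which the labels call non-fracture callus in rats without a fracture, and the sources used here do not give what operation those rats had. Each possible pairing of groups was hybridised on 2-colour arrays with a dye swap, which gave 6 deposited columns of log ratios from 12 arrays, with different numbered samples on each pairing.

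In background terms, Tlr2 (as a pair with Tlr1 or Tlr6), Tlr4 and Tlr5 sit at the cell surface and bind bacterial lipoproteins, lipopolysaccharide and flagellin. Tlr3 and Tlr7 sit in endosomes and bind double-stranded and single-stranded RNA. All except Tlr3 signal through Myd88, which recruits Irak kinases and Traf6 and ends in NF-kB and in the transcription of cytokines, while Tlr3 uses the adaptor Ticam1. In bone and marrow these receptors are best known from macrophages, dendritic cells, B lymphocytes, neutrophils and osteoclast precursors.

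All values are log ratios of a base that the sources used here do not state, so they are not turned into folds. A ratio gives no level, so the presence of the labelled tissue could not be checked by absolute marker signals, and levels of different receptors cannot be ranked. Each ratio is read as the first-named over the second-named group of its title. That reading is unsettled, because the sources used here do not state the direction. The columns in which fractured pair-fed rats met fractured and unfractured alcohol-fed rats, which have a group in common, correlated at -0.616 over probes. Whether that value comes from the sign of a column or from the groups themselves was not tested. The second of these columns, in which both diet and fracture differ, is called the diagonal column. Fitted differences and routes are also given with its sign turned. Signs below would all turn if every column had the opposite numerator. Standard deviations over probes were between 0.252, for the fracture pairing of pair-fed rats, and 0.573, for that of alcohol-fed rats. Precision is limited by how few arrays there were.

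Promoter windows of 3 members are shown before the values: Tlr7, the member with the largest root mean square ratio, Tlr2, whose fitted interaction of diet and fracture was next in size to that of Tlr7, and Myd88, the shared adaptor, with the smallest root mean square ratio. Each is the 300-base RefSeq window on GRCr8 in the direction of the gene, and positions are counted from its start base, which has 250 bases before it. That base is the outer boundary of the RefSeq gene for Myd88, Tlr3, Tlr4 and Tlr6, but lies inside it by 102 bases for Tlr7, 274 for Tlr2 and 16730 for Tlr5, so those windows are not the stretch before the outermost gene start. Capitals mark matches on either strand to the NF-kB consensus, the interferon-stimulated element (GAAA, NN, GAAA), the core of the myeloid factor PU.1 (GAGGAA), the AP-1 site (TGANTCA), the E-box (CACGTG) or the GC box (GGGCGG). The Tlr7 window lies at chrX:30644176-30644475 on the plus strand, the Tlr2 window at chr2:171504508-171504807 on the minus strand and the Myd88 window at chr8:127956181-127956480 on the minus strand.
Tlr7: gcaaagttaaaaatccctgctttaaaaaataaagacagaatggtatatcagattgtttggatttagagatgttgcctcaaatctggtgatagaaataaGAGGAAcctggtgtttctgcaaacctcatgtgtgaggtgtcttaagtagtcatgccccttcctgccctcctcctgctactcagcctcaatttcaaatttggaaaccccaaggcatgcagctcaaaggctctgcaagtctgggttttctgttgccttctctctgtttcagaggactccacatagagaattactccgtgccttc
Tlr2: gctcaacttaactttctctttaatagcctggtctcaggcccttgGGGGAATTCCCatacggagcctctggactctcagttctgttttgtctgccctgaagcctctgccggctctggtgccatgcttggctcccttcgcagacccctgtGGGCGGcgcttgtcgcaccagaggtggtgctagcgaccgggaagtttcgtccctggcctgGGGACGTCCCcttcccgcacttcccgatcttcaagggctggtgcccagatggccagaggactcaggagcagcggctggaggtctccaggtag
Myd88: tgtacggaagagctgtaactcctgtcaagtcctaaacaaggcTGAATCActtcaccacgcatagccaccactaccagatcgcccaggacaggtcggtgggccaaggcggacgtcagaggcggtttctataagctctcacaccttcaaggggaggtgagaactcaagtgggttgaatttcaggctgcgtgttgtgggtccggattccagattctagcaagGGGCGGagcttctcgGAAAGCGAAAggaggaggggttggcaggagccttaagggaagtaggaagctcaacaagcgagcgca

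The windows differed in what they held. The Tlr7 window had 43.3% G and C and a single match, a PU.1 core beginning at -152 from the start base. The Tlr2 window had 61% G and C, matches to the NF-kB consensus beginning at -206, -205 and -42, the first overlapping the second, and a GC box at -102. The Myd88 window had an interferon-stimulated element at -16, a GC box at -31 and an AP-1 site at -208. Windows of all 7 members were in the table, and of these 4 held a PU.1 core (27.6% of 33469 rat promoter windows), 2 a GC box (33.1%), and 1 each the NF-kB consensus (7.51%), the interferon-stimulated element (3.92%) and the AP-1 site (7.33%). None held an E-box (6.42%). A match is a description of letters in these windows and not a site of binding.

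Tlr7 had the widest ratios of the set. For Tlr7, the endosomal sensor of single-stranded RNA, the ratio of fractured pair-fed rats was 0.0165 over unfractured pair-fed, 0.256 over fractured alcohol-fed and -0.610 over unfractured alcohol-fed rats. That of unfractured pair-fed rats was 0.568 over fractured alcohol-fed and -0.242 over unfractured alcohol-fed rats, and that of fractured over unfractured alcohol-fed rats was -1.65. On these readings fractured alcohol-fed rats were the lower and unfractured alcohol-fed rats the higher side of each of their 3 pairings, though the diagonal column, turned, would put unfractured alcohol-fed rats on the lower side of one. The size of the last ratio was at the 98.2th percentile of all rows in its column, and the root mean square of the 6 ratios, 0.768, was at the 94th percentile.

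The surface receptors Tlr2 and Tlr4 had root mean square ratios at the 67.1th and 62.9th percentiles of all rows. For Tlr2 the ratios, in the same order, were 0.471, 0.380, -0.346, -0.270, -0.174 and -0.460. Fractured pair-fed rats were above both groups that differ from them in a single factor, while unfractured alcohol-fed rats were the higher side of their 3 pairings, or of 2 with the diagonal column turned. The ratio of 0.471 was at the 94.4th percentile of its column. For Tlr4, the receptor of lipopolysaccharide, they were 0.148, -0.150, -0.339, 0.537, -0.0657 and 0.498. These ratios do not close round the groups: fractured over unfractured alcohol-fed rats gave 0.498 on their own pairing but -0.603 when both were read against unfractured pair-fed rats.

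For Tlr5, the flagellin receptor, the ratios in the same order were -0.0587, 0.161, -0.118, -0.166, 0.506 and 0.373, so unfractured alcohol-fed rats were the lower side of 2 of their 3 pairings, or of all 3 with the diagonal column turned. Its ratio of 0.506 was at the 88.7th percentile of its column, as the 0.537 of Tlr4 was at the 88.5th. For Tlr6, which pairs with Tlr2, they were -0.102, -0.350, 0.0588, -0.0552, -0.0530 and 0.175, and fractured alcohol-fed rats were the higher side of all 3 of their pairings. In their pairings with fractured pair-fed and with unfractured alcohol-fed rats, Tlr2 had the opposite sign.

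Tlr3 and the adaptor also had small ratios, with the smallest root mean squares of the set being those of Myd88 and Tlr6. The single ratio of Tlr3 largest in size was at the 88.2th percentile of its column. For Tlr3 the ratios were -0.337, 0.225, -0.0293, -0.126, -0.104 and 0.177, with signs that again do not close round the groups. For Myd88 they were -0.000166, 0.0356, 0.0972, -0.203, -0.124 and 0.102, a root mean square of 0.114 that lay at the 3.86th percentile of all rows.

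**Figure D1:**
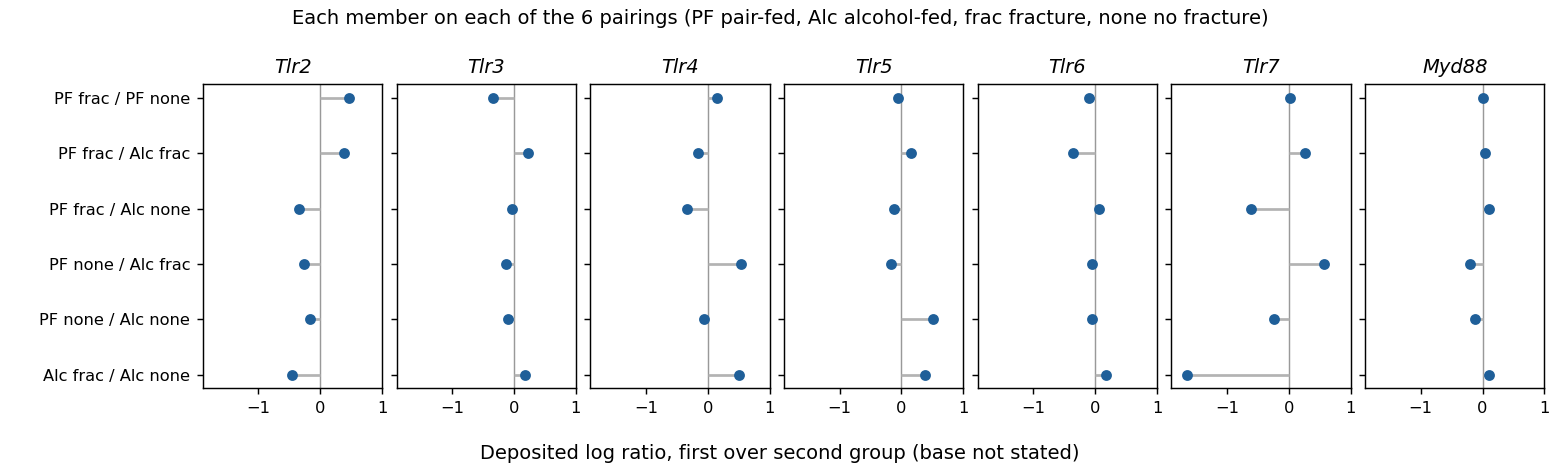
Deposited log ratios (horizontal axis, base not stated) of the 7 members on each of the 6 pairings (vertical axis), with the first-named over the second-named group. The Tlr7 point of -1.65 for fractured over unfractured alcohol-fed rats is far from the other points of that pairing, while Myd88 stays between -0.203 and 0.102.

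A limma model of all 6 pairings gave the group differences, and its adjusted p-values were computed over all 23549 rows with a threshold of 0.05. How far the 4 group values explain the ratios differed between members. The share of a gene's sum of squares left unexplained was 0.111 for Tlr7, 0.242 for Tlr6, 0.258 for Tlr2, 0.348 for Myd88, 0.528 for Tlr5, 0.914 for Tlr4 and 0.956 for Tlr3, against 0.403 over all rows. With the diagonal column turned, the share was 0.390 for Tlr7, 0.164 for Tlr2, 0.130 for Tlr6, 0.279 for Tlr5, 0.705 for Tlr4, 0.365 for Myd88 and 0.961 for Tlr3, against 0.317 over all rows. The ratios of Tlr7 and Myd88 thus left less unexplained with the titles' signs and those of Tlr2, Tlr4, Tlr5 and Tlr6 with the turned column, while those of Tlr3 were hardly explained by either.

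In alcohol-fed rats Tlr7 fell with fracture, by 1.24 ± 0.22 log-ratio units (fitted value ± standard error, adjusted p = 0.0365). It was the 1 called of the 7 members, 14.3%, where 4.24% of all rows were called, 804 of those 999 in the same direction. The size of the difference lay at the 97.1th percentile. The difference can be read by 3 routes that have no numbered sample in common. Each fitted difference between groups is a weighted mean of its 3 routes, so routes of the same sign are not separate support for it. With the titles' signs all routes of Tlr7 were negative: -1.65 on the direct pairing, -0.866 over fractured pair-fed and -0.810 over unfractured pair-fed rats. Of all rows 18.2% were negative by all 3 routes, and a single sign by all 3 was found for 3 of 7 members against 34.5% of rows. With the diagonal column turned the call was lost, at -0.94 ± 0.34 (adjusted p = 0.235), where 0% of rows were called. The route over fractured pair-fed rats then became 0.354, so the routes no longer had a single sign, which 1 of 7 members (Tlr6) and 36.9% of rows then had.

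The other 6 members were not called in that comparison, with adjusted p from 0.322 to 0.952. Tlr2 was at -0.39 ± 0.18, Tlr5 at 0.28 ± 0.19, Tlr6 at 0.19 ± 0.15, Myd88 at 0.09 ± 0.14, Tlr4 at 0.05 ± 0.26 and Tlr3 at 0.03 ± 0.19. The median of the 7 members was 0.051, with 5 positive, and the median of all rows was 0.022. The intervals leave sizeable differences possible for the receptors that were not called: the 95% interval of Tlr4 ran from -0.565 to 0.666 and that of Tlr2 from -0.827 to 0.0517. For Myd88 it ran from -0.254 to 0.427.

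**Figure D2:**
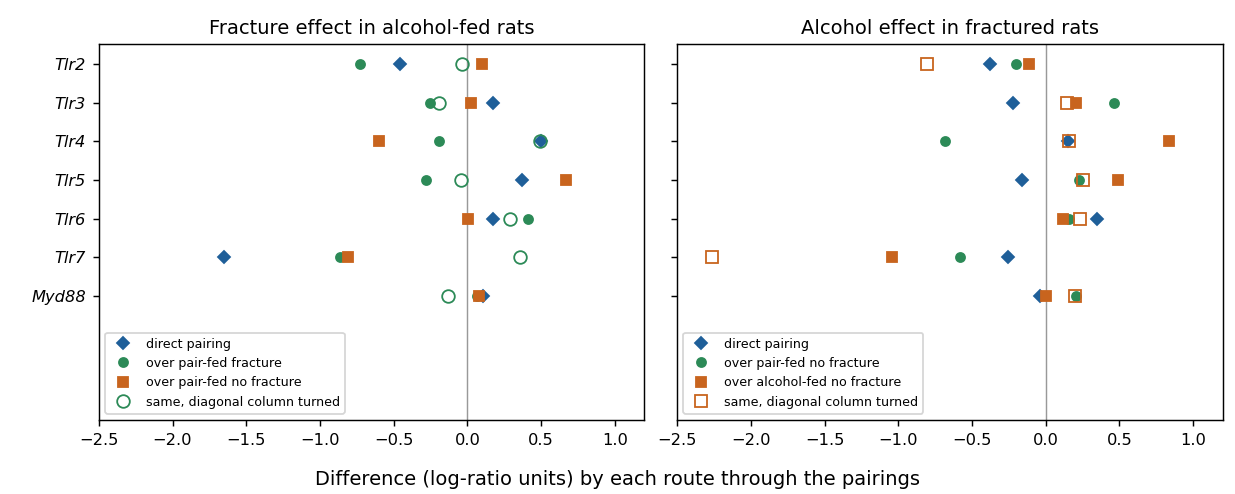
Differences in log-ratio units (horizontal axis) for each member by the direct pairing and by the paths over each of the remaining groups. Open symbols give the route that holds the diagonal column with that column turned. With the titles' signs all 3 routes lie below 0 for Tlr7 in both panels, but in the left panel the turned route is at 0.354, while the filled symbols of Tlr4 run from -0.603 to 0.498 in the left panel and from -0.685 to 0.837 in the right panel.

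The call of Tlr7 held in 5 of 12 alternative settings and its sign in all 12, with values from -1.40 to -0.84. It was lost without the direct pairing (-0.84, adjusted p = 0.323), without the fracture pairing of pair-fed rats (-1.24, 0.093), without the diagonal column (-1.29, 0.0788), without unfractured pair-fed against fractured alcohol-fed rats (-1.31, 0.0643), with the diagonal column turned as above and with ordinary variances (0.249). Setting the columns to a common standard deviation kept it (-1.03, adjusted p = 0.0438). Setting them to a common median absolute deviation, tried after the data were seen, did not (-1.01, 0.0692). Of all rows, 999 were called as reported, 440 at a common standard deviation and 0 at a common median absolute deviation. The count was also 0 without the fracture pairing of pair-fed rats, without the diagonal column and with that column turned, and 2 with ordinary variances.

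**Figure D3:**
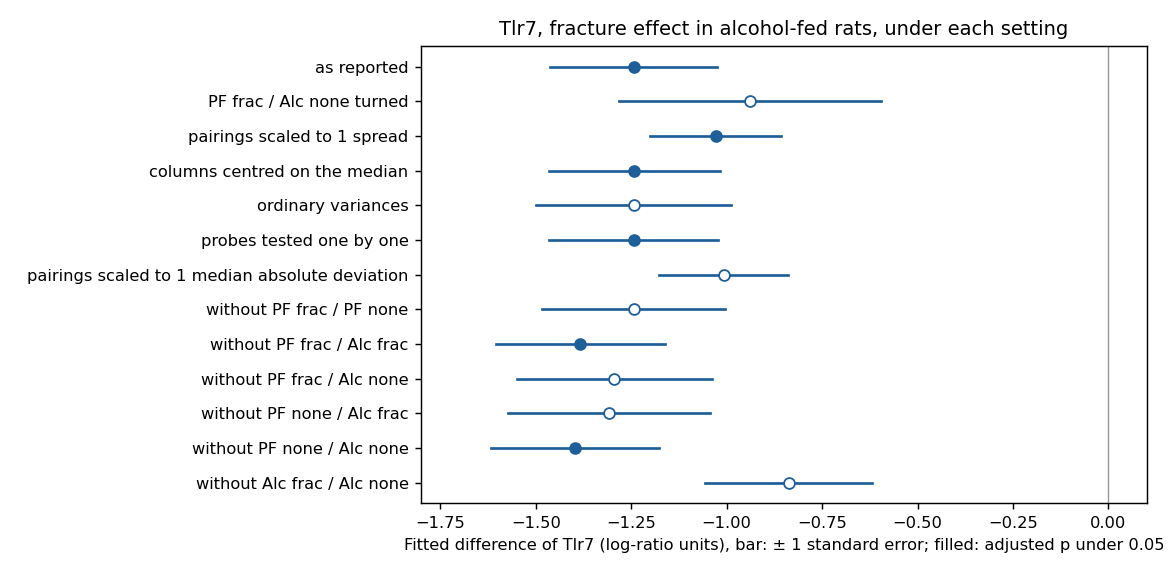
Fitted difference of Tlr7 between fractured and unfractured alcohol-fed rats in log-ratio units (horizontal axis, bars ± 1 standard error) as reported and under 12 alternative settings, where PF is pair-fed, Alc alcohol-fed, frac fracture and none no fracture. Filled points have an adjusted p under 0.05, which the reported value and 5 alternatives reached, and all 13 values are negative.

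In pair-fed rats no member was called for fracture, with an adjusted p of 1 for each and 0% of rows called. At an unadjusted p under 0.05 there were 0 members and 1.90% of rows. Tlr2 had the largest value, 0.36 ± 0.18, which was 0.471 on the direct pairing, followed by Tlr4 at -0.17 ± 0.26, Tlr7 at -0.16 ± 0.22, Myd88 at 0.11 ± 0.14, Tlr5 at -0.10 ± 0.19, Tlr6 at -0.10 ± 0.15 and Tlr3 at -0.06 ± 0.19. With the titles' signs none of the 7 had the same sign by all 3 routes, where 22.3% of all rows did. The turned column put Tlr2 at 0.53 ± 0.16 (adjusted p = 0.999, unadjusted 0.0137) with routes of 0.471, 0.651 and 0.520, all positive. It changed the sign of Tlr7, to 0.14 ± 0.34, and of Tlr4, to 0.00 ± 0.23. A single sign by all 3 routes was then found for 2 of 7 members, Tlr2 and Tlr6, and 29.5% of rows. No row passed with that column turned either (0%).

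Between the diets in fractured rats, the comparison on which the series centres (alcohol-fed minus pair-fed), no member was called, and neither was any row (0%). At an unadjusted p under 0.05 there was 1 member, Tlr7, against 11.5% of all rows. Tlr7 was at -0.53 ± 0.22 (adjusted p = 0.423), with routes of -0.256 directly, -0.584 over unfractured pair-fed and -1.04 over unfractured alcohol-fed rats. Tlr2 was at -0.27 ± 0.18, also negative by all 3 routes, and Tlr6 at 0.24 ± 0.15, positive by all 3. Same signs by all routes were found for 3 of 7 members and for 34.5% of rows.

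The remaining members lay closer to 0 in that comparison, with Tlr4 at 0.11 ± 0.26, Tlr5 at 0.10 ± 0.19, Tlr3 at 0.05 ± 0.19 and Myd88 at 0.03 ± 0.14. The median of the 7 was 0.055 and that of all rows 0.017. The turned column moved Tlr2 to -0.44 ± 0.16 (adjusted p = 0.194), Tlr7 to -0.84 ± 0.34 (0.236) and Tlr6 to 0.27 ± 0.13 (0.306), and changed the sign of Tlr4, to -0.06 ± 0.23. With it 1.85% of rows were called and again no member. Tlr2, Tlr6 and Tlr7 kept a single sign by all 3 routes, as 42.2% of rows did, with Tlr7 at -2.26 over unfractured alcohol-fed rats.

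Between the diets in unfractured rats no member was called, with an adjusted p of 0.999 for each and 0% of rows called. At an unadjusted p under 0.05 there were 2 members, Tlr7 at 0.55 ± 0.22 and Tlr2 at 0.47 ± 0.18, against 3.48% of rows. With the titles' signs both were positive by all 3 routes, as 2 of 7 members and 24.9% of rows had a single sign, from 0.242 to 1.08 for Tlr7 and from 0.174 to 0.817 for Tlr2. Tlr5 was at -0.29 ± 0.19, and Tlr4, Myd88, Tlr6 and Tlr3 lay between -0.10 and 0.06. The turned column left Tlr7 at 0.24 ± 0.34 and Tlr2 at 0.30 ± 0.16, with 0% of rows called. At an unadjusted p under 0.05 there were then 0 members and 6.72% of rows. Tlr2 was still positive by all 3 routes, from 0.125 to 0.731, but the route of Tlr7 over fractured pair-fed rats became -0.594. A single sign was then found for 3 of 7 members, Tlr2, Tlr5 and Myd88, and 29% of rows.

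Whether fracture acted differently on the 2 diets was tested directly as the interaction, in which the diagonal column has no weight, so its direction does not alter the fitted value. No member was called, with 0% of rows called, and at an unadjusted p under 0.05 there were 2 members, Tlr7 and Tlr2, against 10.6% of rows. Tlr7 was at -1.08 ± 0.31 (unadjusted p = 0.0109, adjusted p = 0.266) and Tlr2 at -0.74 ± 0.26 (0.0258 and 0.368). The interaction has 2 readings, the difference of the fracture pairings and that of the diet pairings. Its fitted value is their mean, so readings of the same sign are not separate support for it. The readings were -1.67 and -0.498 for Tlr7 and -0.931 and -0.554 for Tlr2.

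Tlr5 at 0.39 ± 0.27, Tlr6 at 0.29 ± 0.21 and Tlr4 at 0.22 ± 0.36 were also of 1 sign by both readings, so 5 of 7 members were, against 56.5% of rows. Tlr3 was at 0.09 ± 0.26 and Myd88 at -0.03 ± 0.20, each with readings of opposite sign. With the column turned, which here changes the errors and p-values but not the fitted values, 0% of rows were called. The adjusted p of Tlr2 was then 0.298 and that of Tlr7 0.439. At an unadjusted p under 0.05 there was then 1 member, Tlr2 (0.0141), against 12% of rows, while Tlr7 was at 0.0623.

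Averaged over the diets, fracture gave no called member and 0% of rows called, also with the turned column (0%). Tlr7 was at -0.70 ± 0.15 (unadjusted p = 0.00302, adjusted p = 0.163). It was the 1 member with an unadjusted p under 0.05, against 13.6% of rows. The turned column put Tlr7 at -0.40 ± 0.24 (unadjusted p = 0.147), with 0 members and 8.34% of rows under that level. The other members lay between -0.06 and 0.10.

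**Figure D4:**
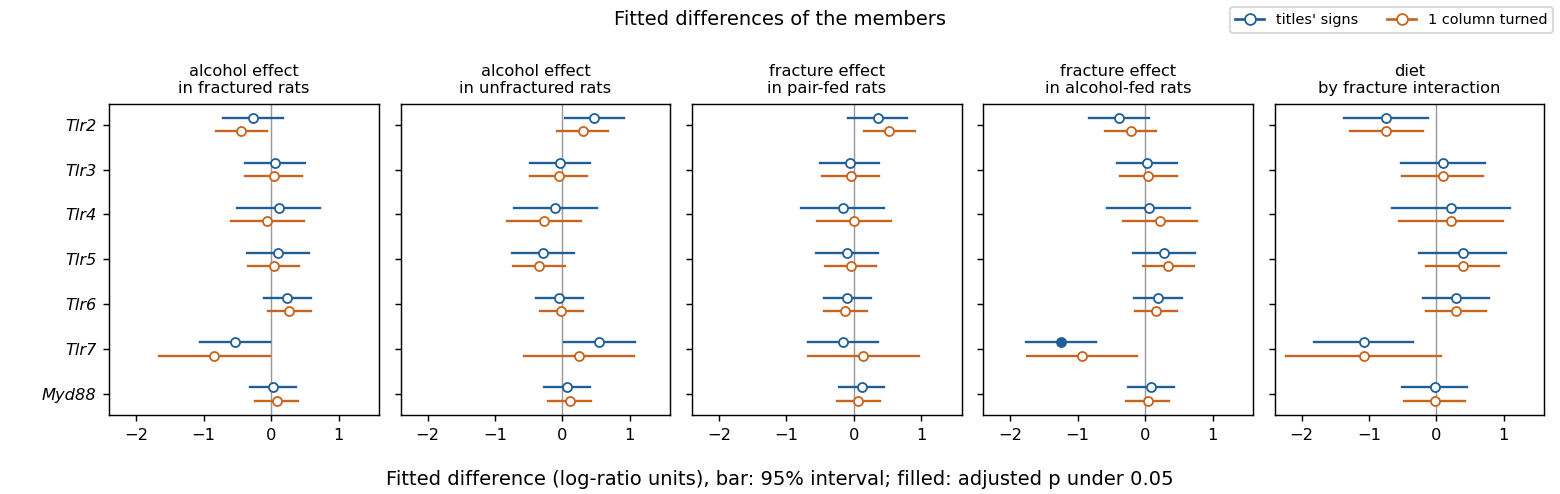
Fitted differences of the 7 members in log-ratio units (horizontal axis) with 95% intervals, for 5 comparisons, with the titles' signs and with the diagonal column turned. The single filled point, Tlr7 in the fracture effect of alcohol-fed rats at -1.24, is the only member past the threshold, and the interaction values are the same under both readings.

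Of the other genes of the pathway, 94 of 114 listed genes were measured. Beside Tlr7, 8 of them (8.51%) were called for fracture in alcohol-fed rats, 2 higher and 6 lower, against the 4.24% of all rows, and their median was -0.005. None was called for alcohol in fractured rats, for alcohol in unfractured rats, for fracture in pair-fed rats or for the interaction. At an unadjusted p under 0.05 these comparisons had 11, 6, 2 and 12 of the 94, against 11.5%, 3.48%, 1.90% and 10.6% of all rows, and fracture in alcohol-fed rats had 22, against 18.9%. With the turned column the 8 genes kept their signs and lost their calls, with adjusted p from 0.0658 to 0.294, where 0% of all rows were called. For alcohol in fractured rats 2 of the 94 (2.13%), Ccl7 and Ccl4, were then called, near the 1.85% of all rows.

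Upstream of the receptors, 1 of 11 measured co-receptors, chaperones and proteases was called, against 4.24% of all rows, and none lower. Cd14, which hands lipopolysaccharide to Tlr4, rose by 0.99 ± 0.20 with fracture in alcohol-fed rats (adjusted p = 0.0476), on a direct pairing of 1.22. Ly86, the partner of the Toll-like protein Cd180, was at 0.53 ± 0.19 (adjusted p = 0.184), the endosomal protease Lgmn at 0.51 ± 0.16 (0.146) and Lbp, the lipopolysaccharide-binding protein of serum, at -0.49 ± 0.18 (0.195). Unc93b1, which carries Tlr3 and Tlr7 to endosomes, was at 0.22 ± 0.17 (0.547), a value of the opposite sign to that of Tlr7. Among the other receptors of the family, 0 of 3 measured were called: Tlr1 was at 0.11 ± 0.18, Tlr10 at -0.12 ± 0.17 and Tlr13 at 0.26.

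Among the endogenous proteins described as ligands of Tlr2 or Tlr4, 1 of 10 was called, against 4.24% of all rows. S100a9, a neutrophil calcium-binding protein that is also in the neutrophil marker list below, fell by 1.68 ± 0.22 (adjusted p = 0.028). Lgals3 was at -0.58 ± 0.18 (0.137), while the matrix proteoglycans Bgn and Dcn were at 0.31 and 0.34 and the nuclear protein Hmgb1 at 0.41.

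Of the IL-1 family receptors, which use the same adaptor as the Toll-like receptors, 1 of 5 was called, against 4.24% of all rows. Il1r1, the signalling receptor for interleukin 1, fell by 1.63 ± 0.30 (adjusted p = 0.0396), and the interleukin 18 receptor Il18r1 was at -0.77 ± 0.32 (0.258). Of the adaptors and kinases below Myd88, 0 of 18 were called, with a median of -0.096. Irak4, the first kinase bound by Myd88, was at -0.43 ± 0.16 (adjusted p = 0.203), Tab1, a subunit of the Map3k7 kinase complex, at -0.72 ± 0.27 (0.219), and Traf6 at -0.24. At an unadjusted p under 0.05 there were 2 of the 18, where 18.9% of all rows were.

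Of the transcription factors, 1 of 11 was called, against 4.24% of all rows. Irf3, which acts below Tlr3 and Tlr4, fell by 1.09 ± 0.17 (adjusted p = 0.0309). Atf3 was at -0.71 ± 0.18 (0.0837) and Cebpb at 1.21 ± 0.48 (0.239). Irf7 and Irf5, the factors that act below Tlr7, were at 0.00 ± 0.18 and 0.21 ± 0.18 (adjusted p = 0.999 and 0.6), and Rela and Nfkb1, subunits of NF-kB, at -0.23 and 0.58. Of the inhibitors, 0 of 15 were called and 2 had an unadjusted p under 0.05, against the same 18.9% of rows, Sigirr, a receptor that damps the pathway, at -0.75 ± 0.26 and the RNA-decay factor Zfp36 at -0.69 ± 0.23.

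Among target cytokines and enzymes 4 of 21 were called, 1 higher and 3 lower, against 4.24% of all rows. Of the 999 rows called, 804 were lower. The monocyte chemokine Ccl7 rose by 2.47 ± 0.27 (adjusted p = 0.028), while Il12a, a subunit of interleukin 12, fell by 1.19 ± 0.22 (0.038), the chemokine Ccl4 fell by 1.14 ± 0.24 (0.0499) and the cytokine Lif fell by 0.81 ± 0.16 (0.0464). The list's median was 0.039, with 11 of 21 positive.

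Between the diets in fractured rats, which involves the same fractured alcohol-fed group, the pathway genes with the smallest p were not called. Ccl7 was at 2.02 ± 0.27 (adjusted p = 0.103), Ccl4 at -1.11 ± 0.24 (0.159), Irf3 at -0.86 ± 0.17 (0.141) and S100a9 at -1.02 ± 0.22 (0.165). Il1r1 was at -0.87 ± 0.30 (0.342) and Cd14 at 0.59 ± 0.20 (0.33), while Irak4 was at -0.36 ± 0.16 (0.454). The median of the 94 was -0.034, with 41 positive, and that of all rows 0.017.

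**Figure D5:**
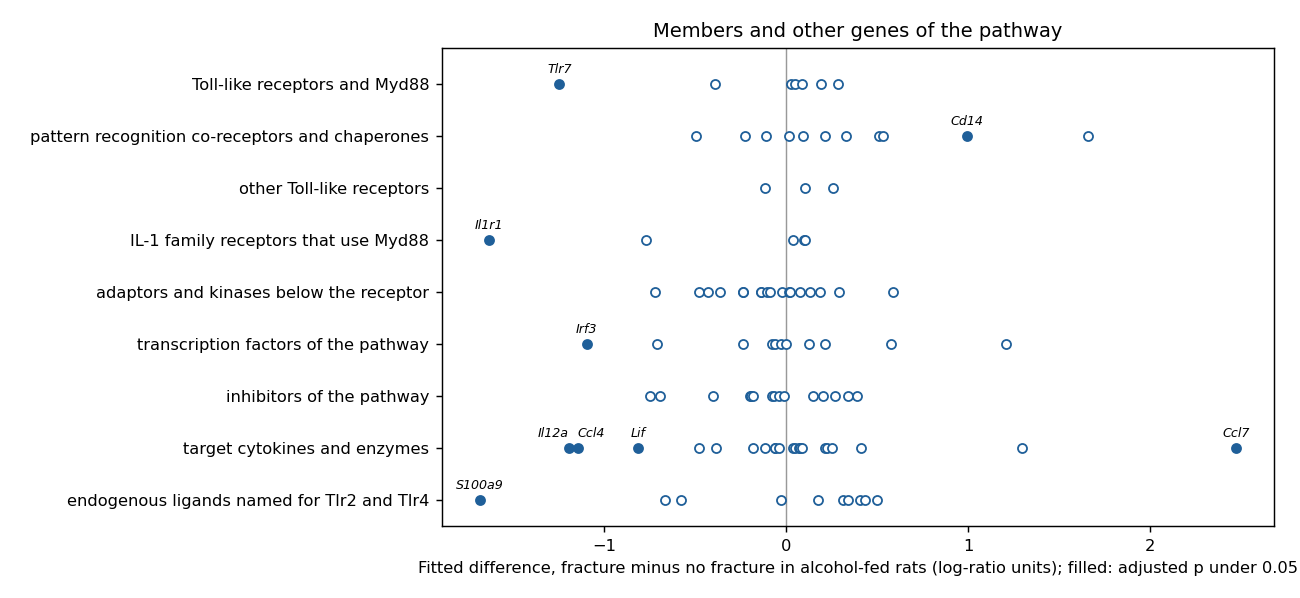
Fitted difference between fractured and unfractured alcohol-fed rats in log-ratio units (horizontal axis) of the members and of each other gene of the pathway lists (vertical axis). Filled and named points have an adjusted p under 0.05: Tlr7 among the members, and Cd14, Il1r1, Irf3, Il12a, Ccl4, Lif, Ccl7 and S100a9 among the others.

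The callus region holds many cell types, and in such bulk tissue fewer cells of a type and less RNA per cell cannot be told apart. In the comparison that called Tlr7, where 4.24% of all rows were called, markers of cells known to express it were as follows. Of the 3 measured of 8 B lymphocyte markers the values ran from -1.14 to 0.05 (median -0.617), with 1 positive and 0 called. Those of the 4 measured of 8 dendritic cell markers ran from -0.83 to 0.90 (median 0.198), with 3 positive and 1 called lower. Those of the 7 measured of 10 macrophage markers ran from -0.46 to 0.81 (median 0.101), with 4 positive and 1 called higher. Those called were Irf8, a transcription factor of dendritic and B cells, which fell by 0.83 ± 0.17 (adjusted p = 0.0494), and the lysozyme Lyz2, which rose by 0.81 ± 0.15 (0.0431). The B cell receptor subunit Cd79b was at -1.14 ± 0.26 (0.0623) and Cd72 at -0.62 ± 0.14 (0.0655).

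Markers of other cells in the same comparison are given here beside that 4.24% of all rows called. Neutrophil markers, 7 of 10 measured, ran from -1.681 to 0.352, with a median of -0.656 and 1 called lower. Erythroid markers, 7 of 8 measured, ran from -2.174 to 1.231, with a median of 0.059 and 2 called lower. Skeletal muscle markers, 6 of 8 measured, were all positive, from 0.502 to 2.082, with a median of 1.78 and 2 called higher. T and NK cell markers, 7 of 8 measured, ran from -1.685 to 0.147 (median -0.239) with 0 called. Endothelial markers, 4 of 6, ran from -0.891 to -0.006 (median -0.157) with 0 called. Osteoblast and fibroblast markers, 7 of 8, ran from -0.904 to 0.361 (median -0.152) with 1 called lower. With the turned column no gene of any of these lists was called in this comparison. The part of any cell type in the value of Tlr7 was not tested.

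As a description of its pattern, the 3 named genes whose 6 ratios were most like those of Tlr7 were Tmem178a (Pearson r = 0.997), Wdr13 (0.997) and Tpgs1 (0.996). They were taken from 3580 named genes with a root mean square no lower than that of Tlr7 divided by 2, of which 209 had r over 0.95. For Wdr13 the ratio of fractured over unfractured alcohol-fed rats was -1.22 and for Tmem178a -0.993. Within the set, the 6 ratios of Tlr7 had r = 0.552 with those of Tlr2, -0.68 with Myd88 and -0.76 with Tlr6, and those of Tlr2 and Tlr6 had r = -0.807. These coefficients rest on 6 pairings that have groups in common.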

How the data were processed

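Each of the 6 samples is a pairing of 2 groups with RNA of a group in both channels. Per the labels' protocols, RNA was taken from milled frozen tissue with Trizol, amplified and coupled to Cy3 or Cy5. The authors deposited a log ratio for each probe and pairing, and these were used unchanged. The sources used here do not state their base, direction, background correction or normalization. The values show that each column was centred on its mean, and the column medians, in the order of the pairings in the report, were -0.00469, 0.0176, -0.0481, 0.00594, 0.0177 and 0.0233. Dim probes could not be left out, since no signals were used here. The labels do not call the numbered samples separate rats, and the spread behind the p-values, that between these samples, may be technical.

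Of 26503 probes, 22 control spots were left out. Symbols of 15521 probes came from the platform annotation and were updated through the RefSeq table of GRCr8 (11824 current, 3638 updated by a synonym, 59 kept), and probes of 1 gene were averaged, which left 23549 rows. Differences were fitted with limma 3.58.1 in R 4.3.3, with +1 for the first-named and -1 for the second-named group, 3 residual and 3.66 prior degrees of freedom, two-sided tests and Benjamini-Hochberg adjustment over all rows. The model was tested on simulated data. The members, the lists, the rule on which genes to name and the alternatives were chosen with earlier results of these data known. The rule named all members with a probe, up to 4 genes of smallest p per pathway list with those called, and up to 2 per marker list. Bgn, Hmgb1, Traf6, Irf5, Irf7, Rela and Unc93b1 were named for their role, outside that rule.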

Additional observations from a re-analysis of the deposited data

How the results depend on the processing

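Of 504 refitted member values (42 values under 12 alternatives), 464 kept their sign and 40 did not, and no member was called in any alternative where it was not called as reported. The alternatives are those of the report: 1 column turned, each pairing left out, columns scaled to 1 standard deviation or, chosen after seeing the data, to 1 median absolute deviation, median centring, ordinary variances and probes tested singly. The 40 changes of sign all concern values that were not called. For fracture in alcohol-fed rats the count of called members was 1 as reported, 0 with the diagonal column turned, 0 with ordinary variances, 0 with the median absolute deviation and 0 to 1 when a pairing was left out. The count of called rows, 999, became 0 with that column turned, 440 with columns at 1 standard deviation, 0 at 1 median absolute deviation, 2 with ordinary variances and 0 to 918 without a pairing. For alcohol in fractured rats, 0 rows became 435 with the turned column and 4 with ordinary variances, which also gave 2 for the interaction and 1 for the average fracture effect. No paired analysis was possible because each pairing of groups was deposited as a single column. Signal over background was not used here, so the limit set by dim probes is unknown.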
